A study of Homo sapiens with 2 samples.

Results

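The genes of collagens, laminins and integrins were examined for DNA methylation in SH-SY5Y, a cell line that was established from a human neuroblastoma and keeps features of sympathetic neurons. One library came from cells treated with Mdivi-1, a compound used against the division of mitochondria, and the other from cells given DMSO, its solvent. Both libraries were genomic DNA captured for methylation analysis, converted with bisulfite and sequenced, and the dose and duration of treatment are not stated in the labels. Genes were chosen by symbol: collagen chains (COL, digits, A, digits), laminin chains (LAMA, LAMB or LAMC with a digit) and integrin subunits (ITGA or ITGB with 1 to 2 digits or 1 letter), on autosomes, at CpGs that each library covered with 10 or more reads. This gave 79 genes of the 31235 with an autosomal promoter or gene body CpG kept in this way, namely 42 collagen, 12 laminin and 25 integrin genes. The X-linked COL4A5 and COL4A6 fell outside the choice. The 79 genes held 14152 CpGs of 2458231 autosomal CpGs kept, of which 1962 lay in promoters and 12363 in gene bodies. Promoter and gene body were kept apart, and 173 CpGs counted in both because the promoter of one gene lay inside another of the 79.

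Collagens are secreted proteins whose chains wind into triple helices and form fibrils, sheets and filaments of the extracellular matrix. Laminins are cross-shaped trimers of an alpha, a beta and a gamma chain that build the basement membrane together with type IV collagen. Integrins are cell surface receptors of an alpha and a beta subunit that bind these proteins and tie them to the cytoskeleton. In neuroblastoma cells they serve attachment and neurite outgrowth on matrix. Methylation of CpGs in a promoter commonly accompanies silence of the gene, whereas methylation in a gene body is common in transcribed genes. RNA levels were not analysed here.

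Methylation is given as the mean percentage of methylated reads over the CpGs of a region, and differences are Mdivi-1 minus DMSO control in percentage points. With 1 library per group no test between the treatments was possible, and every error below covers the counting of reads and not the variation between cultures. The counting error of a difference is 1 standard error and treats CpGs as independent. A larger one, which takes each read to cover all CpGs of a region, is given where a result rests on it. It also gives each CpG the mean level of the region, so it tends to be too large where CpGs differ in level. An intermediate level of a CpG can come from a mixture of cells or alleles or from partly methylated molecules, and these cannot be told apart. The mean of a region can also be intermediate because it joins low and high CpGs, in places from several start sites. Mean coverage of the 14152 CpGs was 47.2 reads in the Mdivi-1 library and 38.2 reads in the control, close to the 49.2 reads (Mdivi-1) and 39.8 reads (DMSO) over all autosomal CpGs. CpGs just inside the coverage limit (a lower coverage of 10 or 11 reads, 636 CpGs) averaged 39.8% in the Mdivi-1 library and 39.6% in the control. CpGs just outside it (8 or 9 reads, 609 CpGs) averaged 40.0% with Mdivi-1 and 40.6% with DMSO. Promoters of 10 regulators and enzymes of adrenergic neuroblastoma cells, such as GATA3 and DBH, had a median level of 5.71%, and 6 of them were under 10%, while TH stood at 54.5% in the Mdivi-1 library and 53.7% in the control.

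The sequences that bear on the levels below are the 250 bases before the RefSeq start site of 6 genes, read in the direction of the gene, with every CpG in capitals. They come from the RefSeq promoter table of build GRCh38.p14, while all methylation positions are hg19, so no methylation value is placed on a base of these sequences. The first 3 belong to laminin chains that assemble into a single trimer and whose promoters were almost free of methylation. They lie on chromosome 20 (62367313 to 62367562, minus strand), chromosome 3 (49133051 to 49133300, minus strand) and chromosome 1 (183023170 to 183023419, plus strand), all in GRCh38.p14.
LAMA5: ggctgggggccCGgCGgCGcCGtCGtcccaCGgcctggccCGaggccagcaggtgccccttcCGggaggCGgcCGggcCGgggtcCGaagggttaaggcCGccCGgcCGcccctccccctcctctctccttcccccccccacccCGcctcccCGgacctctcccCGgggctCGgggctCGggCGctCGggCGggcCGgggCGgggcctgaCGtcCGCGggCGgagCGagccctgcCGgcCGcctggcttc
LAMB2: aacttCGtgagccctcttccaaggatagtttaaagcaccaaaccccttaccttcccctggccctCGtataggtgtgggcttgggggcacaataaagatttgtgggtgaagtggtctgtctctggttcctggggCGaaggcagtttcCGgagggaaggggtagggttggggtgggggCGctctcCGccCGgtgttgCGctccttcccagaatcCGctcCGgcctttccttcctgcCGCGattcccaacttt
LAMC1: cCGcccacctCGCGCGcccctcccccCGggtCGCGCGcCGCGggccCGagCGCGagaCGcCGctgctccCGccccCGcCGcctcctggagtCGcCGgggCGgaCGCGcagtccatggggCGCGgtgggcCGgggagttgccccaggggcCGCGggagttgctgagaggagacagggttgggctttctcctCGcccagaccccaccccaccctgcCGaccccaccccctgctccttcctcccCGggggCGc
The next 3 belong to genes whose promoters were highly methylated in both libraries. They lie on chromosome 1 (40317287 to 40317536), chromosome 7 (108130362 to 108130611) and chromosome 7 (7535874 to 7536123), all on the minus strand of GRCh38.p14.
COL9A2: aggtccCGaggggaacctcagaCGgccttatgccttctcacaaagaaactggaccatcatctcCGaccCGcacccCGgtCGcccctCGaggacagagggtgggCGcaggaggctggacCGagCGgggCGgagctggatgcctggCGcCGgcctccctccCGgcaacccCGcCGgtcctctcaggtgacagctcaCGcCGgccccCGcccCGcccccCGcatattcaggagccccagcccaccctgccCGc
LAMB4: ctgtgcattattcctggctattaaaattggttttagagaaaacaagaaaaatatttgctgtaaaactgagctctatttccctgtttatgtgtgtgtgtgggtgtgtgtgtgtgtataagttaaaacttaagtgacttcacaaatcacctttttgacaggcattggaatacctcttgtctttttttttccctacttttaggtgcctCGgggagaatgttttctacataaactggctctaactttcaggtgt
COL28A1: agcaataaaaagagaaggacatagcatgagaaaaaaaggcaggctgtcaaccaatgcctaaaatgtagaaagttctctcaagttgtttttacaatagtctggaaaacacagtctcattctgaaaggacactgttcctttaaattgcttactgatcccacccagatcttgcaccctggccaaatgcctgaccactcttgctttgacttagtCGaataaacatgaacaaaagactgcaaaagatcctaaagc
The number of CpGs in the 250 bases was 32 for LAMA5, 12 for LAMB2, 32 for LAMC1, 22 for COL9A2, and 1 each for LAMB4 and COL28A1. CpG number therefore did not order these levels: COL9A2 carried 22 CpGs and stood near 87.0%, whereas LAMB2 carried 12 and stood near 1.11%. Over the 38 genes with a single RefSeq start site and at least 5 measured promoter CpGs, CpG number was set against promoter level. Spearman's rho was -0.27 and Pearson's r was -0.33, given as a description across genes that share both libraries. The levels are means over all annotated promoter CpGs, which can extend beyond this start site. Those of LAMA3 ran from 21268753 to 21452982 of chromosome 18 (hg19). The 23 genes with 15 or more CpGs had a median level of 23.4% and a range of 1.30% to 87.0%. The 15 genes with fewer had a median of 31.7% and a range of 1.11% to 93.1%. The 6-letter motif GGGCGG, searched on both strands of the same 250 bases, was present in 40 of 73 RefSeq promoters of these families (54.8%), against 42.7% of 33725 autosomal promoters. The motif TATAAA, searched likewise, was present in 10 of 73 (13.7%), against 10.7% of all. No match says only that these letters are not in the window.

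Taken as 1 set, these genes more often had a mean promoter level between 10% and 80% than all genes did. Of the 79 genes, 78 had a promoter CpG (LAMA1 had none), and 70 had at least 5. The median level of these 70 promoters was 29.4%, against 18.5% for 22658 autosomal promoters. Under 10% stood 12 of 70 (17.1%, against 36.7% of all promoters), between 10% and 80% stood 47 (67.1%, against 52.0%) and above 80% stood 11 (15.7%, against 11.4%). The middle class held 30 of 40 collagen, 5 of 11 laminin and 12 of 19 integrin promoters. Of the single promoter CpGs of these genes 30.0% lay between 20% and 80%, against 14.8% of all promoter CpGs. By family the share was 35.6% in collagens, 22.3% in laminins and 21.5% in integrins. Fewer of the promoter CpGs of the 70 genes lay in CpG islands, with a median share of 15.6% per promoter against 33.3%. Within CpG islands the level was 25.3% in both libraries over 685 CpGs of these genes, against 13.7% in the Mdivi-1 library and 13.6% in the control over all island CpGs of promoters. Collagens (416 CpGs) stood above that value at 32.9% in the Mdivi-1 library and 33.1% in the control, and laminins at 21.8% in the Mdivi-1 library and 21.5% in the control. Integrins (168 CpGs) stood below it at 8.73% in the Mdivi-1 library and 8.35% in the control.

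**Figure D1:**
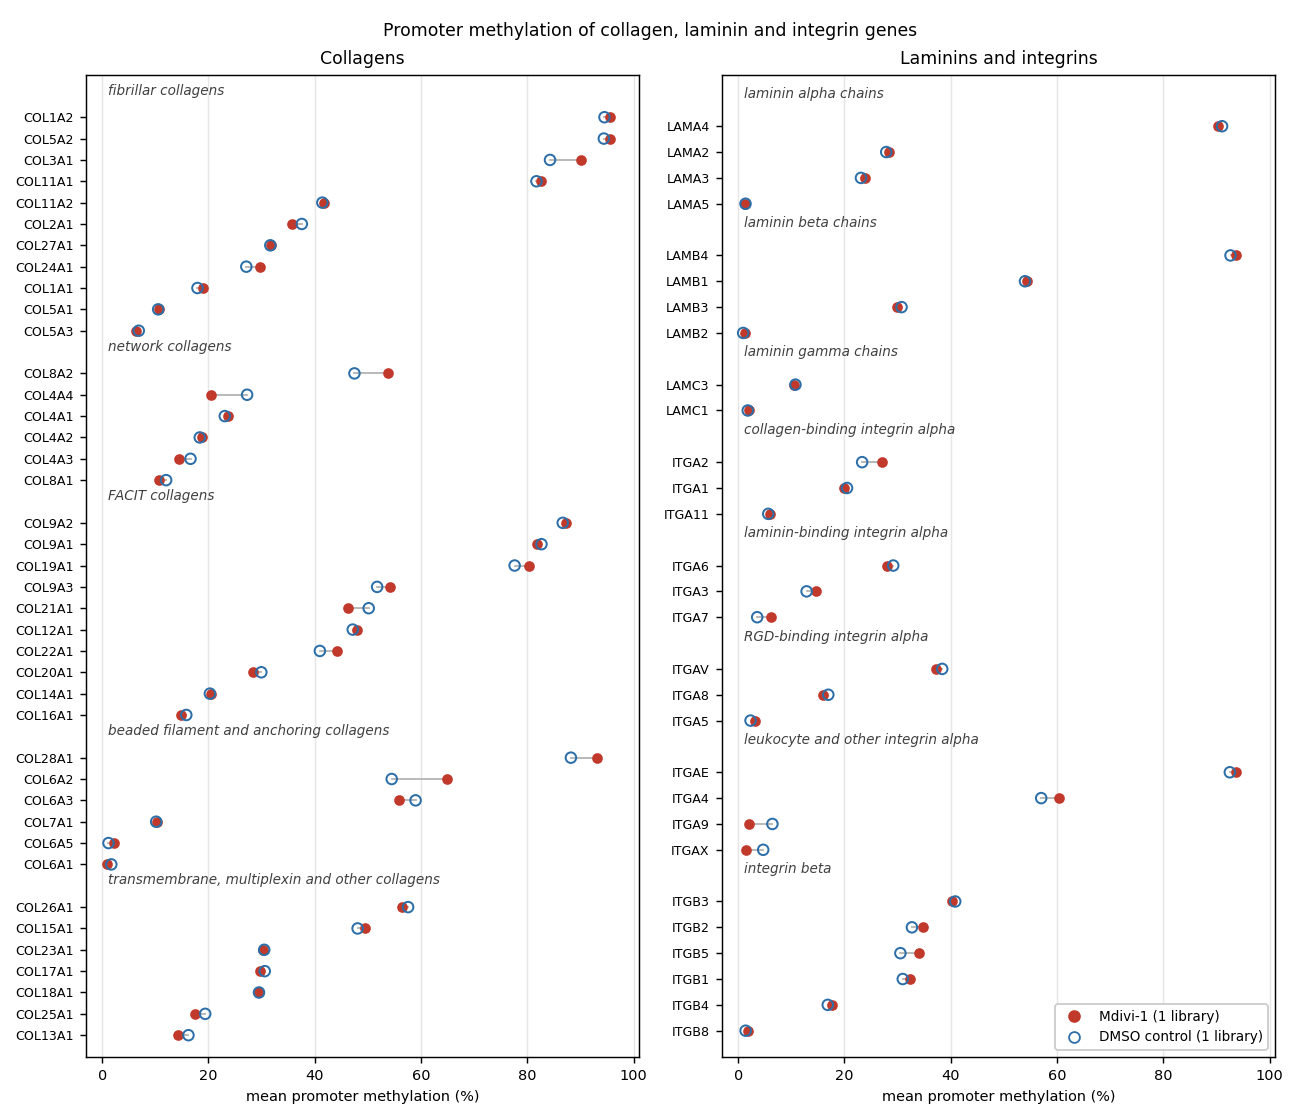
Mean promoter methylation (x axis, percent) of 69 of the 70 genes with at least 5 promoter CpGs, grouped by role, with the Mdivi-1 library as filled red points and the DMSO control library as open blue points. Levels run from about 1% (COL6A1, LAMA5, LAMB2) to about 95% (COL1A2, COL5A2), and the 2 libraries lie within 5 points of each other for 65 of the 69 genes.

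Fibrillar collagens, which form the cross-banded fibrils of connective tissue, had a median promoter level of 36.6% and spread from 6.64% to 95.0%. COL1A2, a chain of type I collagen, had the highest level of the role, 95.5% in the Mdivi-1 library and 94.5% in the control over 43 CpGs, and each of these CpGs was above 80%. COL1A1, which encodes the other chain of the same trimer, stood at 19.1% with Mdivi-1 and 17.9% with DMSO over 8 CpGs. Chains of a single protein thus differed at their promoters. COL5A2 (95.5% in the Mdivi-1 library, 94.4% in the control) and COL5A1 (10.6% with Mdivi-1 and 10.5% with DMSO), chains of type V collagen, which sets fibril diameter, differed in the same manner. COL5A3, a further type V chain, was lowest at 6.39% in the Mdivi-1 library and 6.88% in the control. COL3A1, the chain of type III collagen of vessels and skin, stood at 90.1% in the Mdivi-1 library and 84.3% in the control over 6 CpGs, with 3 CpGs higher and 3 lower and a counting error of 4.06 points.

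Network collagens form the sheets of basement membranes and similar layers, and none of their 6 promoters with at least 5 CpGs was under 10% or over 80%. COL10A1, the collagen of hypertrophic cartilage, was at 95.4% in the Mdivi-1 library and 95.1% in the control but had 4 CpGs and entered no promoter count. COL4A1 and COL4A2, the most widespread chains of type IV collagen, lie head to head on chromosome 13. Their RefSeq start sites are 126 bases apart, and this stretch (GRCh38.p14 chromosome 13, 110307158 to 110307283, plus strand) holds 20 CpGs.
COL4A1-COL4A2: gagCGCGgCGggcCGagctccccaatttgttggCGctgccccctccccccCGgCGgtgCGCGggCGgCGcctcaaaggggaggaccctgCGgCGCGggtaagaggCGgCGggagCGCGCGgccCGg
The COL4A2 promoter averaged 18.7% in the Mdivi-1 library and 18.4% in the control over 44 CpGs, and the COL4A1 promoter averaged 23.7% with Mdivi-1 and 23.1% with DMSO over 103 CpGs. No CpG with 10 reads in both libraries lay in the 578 bases between the nearest CpGs of both promoters, and because the builds differ the printed stretch was not placed relative to this gap. On either side of the gap both low and high CpGs occurred: in COL4A1 68 CpGs were under 20%, 28 between 20% and 80% and 7 above 80%, and in COL4A2 the counts were 34, 7 and 3. The CpGs of the COL4A1 promoter lie beyond the gap, within the COL4A2 gene. In blocks of 500 bases from the middle of the gap in that direction, the mean was 19.7% in the Mdivi-1 library and 15.2% in the control over the first 11 CpGs, 32.0% with Mdivi-1 and 31.9% with DMSO over the next 48, and 10.8% with Mdivi-1 and 10.4% with DMSO over the following 23. The island part of the COL4A1 promoter (62 CpGs) was at 29.9% in the Mdivi-1 library and 29.4% in the control, above its shore (41 CpGs) at 14.2% with Mdivi-1 and 13.5% with DMSO. COL4A2 showed the opposite order, with 12.1% with Mdivi-1 and 11.4% with DMSO in its island (30 CpGs) and 32.9% with Mdivi-1 and 33.4% with DMSO in its shore (14 CpGs).

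**Figure D2:**
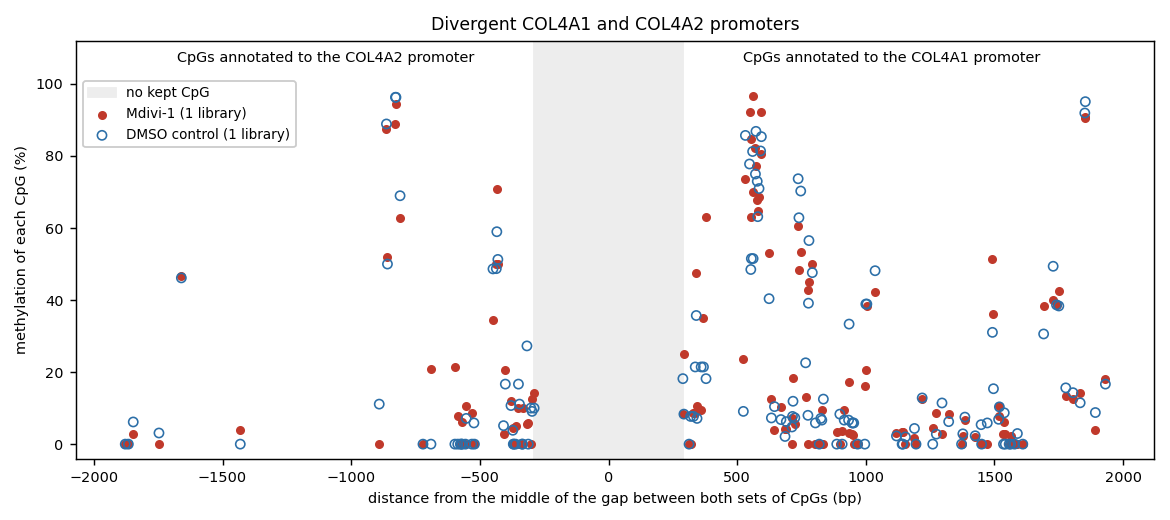
Methylation of each CpG (y axis, percent) annotated to the COL4A2 or the COL4A1 promoter, against its distance in bases from the middle of the gap between both sets (x axis), with the Mdivi-1 library as filled red points and the DMSO control as open blue points. The grey band marks the 578 bases without a kept CpG, and clusters of CpGs above 60% sit beside runs near 0 in both libraries.

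COL4A3 and COL4A4, the type IV chains of the kidney filter, are also arranged head to head, on chromosome 2, and share 10 promoter CpGs. The shared CpGs averaged 27.6% in the Mdivi-1 library and 33.6% in the control at 13 reads with Mdivi-1 and 13.3 reads with DMSO. The COL4A4 promoter stood at 20.4% in the Mdivi-1 library and 27.3% in the control over 16 CpGs, the largest difference downwards among the 70 promoters, at -6.84 points with a counting error of 3.43 points. With reads taken as shared by all CpGs the error was 15.2 points, 9 CpGs were lower and 5 higher, and coverage was 16.5 reads with Mdivi-1 and 15.1 reads with DMSO. COL4A3 stood at 14.4% with Mdivi-1 and 16.6% with DMSO over 30 CpGs. COL8A2, a short-chain collagen of the corneal membrane, had the highest level of the role, 53.7% in the Mdivi-1 library and 47.5% in the control over 28 CpGs, with 21 CpGs higher and 6 lower. COL8A1, its partner chain in type VIII collagen, was lowest at 10.7% with Mdivi-1 and 12.0% with DMSO over 22 CpGs.

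FACIT collagens, which decorate the surface of fibrils, had the highest median of the collagen roles, 47.9%, and none of their 10 promoters was under 10%. COL9A2, a type IX chain of cartilage whose sequence is printed above, stood at 87.3% in the Mdivi-1 library and 86.7% in the control over 24 CpGs. Its partner chains COL9A1 (81.8% with Mdivi-1 and 82.7% with DMSO) and COL9A3 (54.3% with Mdivi-1 and 51.7% with DMSO) were lower. COL16A1 was lowest of the role at 14.8% in the Mdivi-1 library and 15.8% in the control. COL21A1 stood at 46.4% with Mdivi-1 and 50.2% with DMSO over 25 CpGs, 19 of them lower and 6 higher with Mdivi-1, and the difference of -3.80 points lay within 1.96 counting errors (2.16 points each). COL19A1, a basement membrane zone collagen, stood at 80.4% with Mdivi-1 and 77.6% with DMSO.

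Among collagens of beaded filaments and anchoring fibrils, the 3 classic chains of type VI collagen differed widely at their promoters. COL6A1 was at 0.863% in the Mdivi-1 library and 1.71% in the control over 21 CpGs, and none of its CpGs exceeded 5.06%, taken over both libraries. COL6A2, its neighbour on chromosome 21, was at 64.9% with Mdivi-1 and 54.5% with DMSO, and COL6A3 on chromosome 2 at 55.9% with Mdivi-1 and 59.0% with DMSO. These chains assemble into a single protein. COL7A1, the anchoring fibril collagen of skin, stood at 10.3% in the Mdivi-1 library and 10.2% in the control. COL28A1 was highest of the role at 93.1% in the Mdivi-1 library and 88.2% in the control over 6 CpGs, with 5 higher and 1 lower. The 7 transmembrane, multiplexin and other collagens all lay between 10% and 80%, from COL13A1, a collagen of the neuromuscular junction, at 14.2% with Mdivi-1 and 16.2% with DMSO to COL26A1 at 56.5% with Mdivi-1 and 57.6% with DMSO. COL18A1, the multiplexin from which endostatin is cut, stood at 29.6% in the Mdivi-1 library and 29.5% in the control.

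Laminin promoters ranged from almost free of methylation to almost fully methylated. LAMA5, LAMB2 and LAMC1 chains, which form a trimer of mature basement membranes, had promoters at 1.23%, 1.29% and 2.09% in the Mdivi-1 library and at 1.37%, 0.931% and 1.80% in the control. All 40 CpGs of LAMA5, all 40 of LAMB2 and all 34 of LAMC1 were under 20%. By contrast LAMA4, the alpha chain of vessels and peripheral nerve, stood at 90.3% with Mdivi-1 and 91.1% with DMSO and LAMB4 at 93.6% with Mdivi-1 and 92.6% with DMSO. LAMB1, the widespread beta chain, was intermediate at 54.3% in the Mdivi-1 library and 54.0% in the control over 67 CpGs, 47 of which lay between 20% and 80%. LAMA2 (28.4% with Mdivi-1 and 27.9% with DMSO), LAMA3 (23.9% with Mdivi-1 and 23.1% with DMSO), LAMB3 (29.9% with Mdivi-1 and 30.7% with DMSO) and LAMC3 (10.5% with Mdivi-1 and 10.8% with DMSO) lay in the lower range. Within the alpha and the beta chains the level therefore spanned more than 80 points between genes and differed by less than 1 point between the libraries.

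Integrin promoters had a lower median, 20.2%, than collagens (31.0%) and laminins (28.1%), and ITGAE alone of 19 was above 80%. Among subunits that bind collagen, ITGA11 was at 5.97% in the Mdivi-1 library and 5.66% in the control, ITGA1 at 19.9% with Mdivi-1 and 20.5% with DMSO, and ITGA2 at 27.1% with Mdivi-1 and 23.3% with DMSO. Among those that bind laminin, ITGA6 stood at 28.0% in the Mdivi-1 library and 29.2% in the control, ITGA3 at 14.6% with Mdivi-1 and 12.9% with DMSO, and ITGA7 at 6.15% with Mdivi-1 and 3.57% with DMSO. These subunits pair with ITGB1 or ITGB4 to hold cells on basement membrane. ITGB1, the partner of most alpha subunits, stood at 32.3% in the Mdivi-1 library and 31.0% in the control over 47 CpGs, which split into 30 under 20% and 14 above 80%. Its promoter CpGs spanned several start sites, from 33224638 to 33249086 on chromosome 10 of hg19. ITGB4, the hemidesmosome subunit, stood at 17.7% with Mdivi-1 and 16.9% with DMSO, and ITGB8, a receptor subunit that activates latent TGF-beta, at 1.92% with Mdivi-1 and 1.39% with DMSO. Among subunits that recognise RGD motifs, ITGA5, the fibronectin receptor, was at 3.18% with Mdivi-1 and 2.32% with DMSO and ITGAV, the vitronectin receptor, at 37.2% with Mdivi-1 and 38.4% with DMSO. ITGB3, which pairs with ITGAV, had the highest level of the beta subunits with at least 5 promoter CpGs, at 40.2% in the Mdivi-1 library and 40.8% in the control over 10 CpGs.

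Integrin alpha genes grouped as leukocyte and other subunits did not share a single state in these neural crest-derived cells. ITGAE, the subunit of intraepithelial T cells, was at 93.7% in the Mdivi-1 library and 92.5% in the control over 17 CpGs, each above 80%. ITGA4, a subunit of lymphocyte homing receptors, was at 60.3% with Mdivi-1 and 57.0% with DMSO. ITGAX, the subunit of dendritic cells, was at 1.52% with Mdivi-1 and 4.70% with DMSO over 8 CpGs, and ITGA9 at 2.04% with Mdivi-1 and 6.43% with DMSO over 11. ITGB2, a beta subunit of leukocytes, stood at 34.7% with Mdivi-1 and 32.7% with DMSO over 33 CpGs. ITGAD, ITGAL, ITGAM and ITGB7 had 1 to 3 promoter CpGs and entered no promoter count, as did ITGB6, an epithelial subunit, at 81.7% with Mdivi-1 and 84.4% with DMSO over 3 CpGs.

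The second question was whether the gene bodies of the same genes mirrored their promoters. All 79 had at least 5 gene body CpGs, with a median level of 39.1%, against 37.9% for 23487 autosomal gene bodies. None of the 79 was under 10%, against 16.7% of all gene bodies, and 69 lay between 10% and 80% (87.3%, against 69.3%). Single CpGs followed: 32.4% of the gene body CpGs of these genes lay between 20% and 80%, against 17.6% of all gene body CpGs. Outside islands, shores and shelves the gene body level was 43.1% in the Mdivi-1 library and 42.9% in the control over 5078 CpGs of these genes, against 64.8% with Mdivi-1 and 64.0% with DMSO over all such CpGs. By family those levels were 37.4% with Mdivi-1 and 37.1% with DMSO for collagens (3560 CpGs), 68.2% with Mdivi-1 and 68.3% with DMSO for laminins (666 CpGs), and 47.6% with Mdivi-1 and 47.3% with DMSO for integrins (852 CpGs). The shortfall from other genes thus lay in collagens and integrins.

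The gene body was more methylated than the promoter in 43 of 70 genes (61.4%), against 71.7% of 19254 genes. Across the 70 genes Pearson's r between both levels was 0.51 and Spearman's rho 0.43, a description over genes that share both libraries. The widest gaps were in genes with almost unmethylated promoters. LAMA5 had a gene body at 89.3% in the Mdivi-1 library and 88.4% in the control over 518 CpGs, LAMB2 at 83.0% with Mdivi-1 and 82.5% with DMSO over 186, and COL6A1 at 74.9% with Mdivi-1 and 74.3% with DMSO over 331. LAMC1, of the same trimer, had a gene body at only 51.3% with Mdivi-1 and 50.2% with DMSO. In the opposite direction, ITGAE had a gene body at 25.3% in the Mdivi-1 library and 25.6% in the control, COL19A1 at 37.2% with Mdivi-1 and 35.6% with DMSO, and COL26A1 at 23.5% with Mdivi-1 and 23.8% with DMSO. COL1A2 was methylated throughout, with a gene body at 90.3% with Mdivi-1 and 89.7% with DMSO, whereas COL1A1 was low throughout, with a gene body at 20.8% with Mdivi-1 and 21.1% with DMSO over 324 CpGs.

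**Figure D3:**
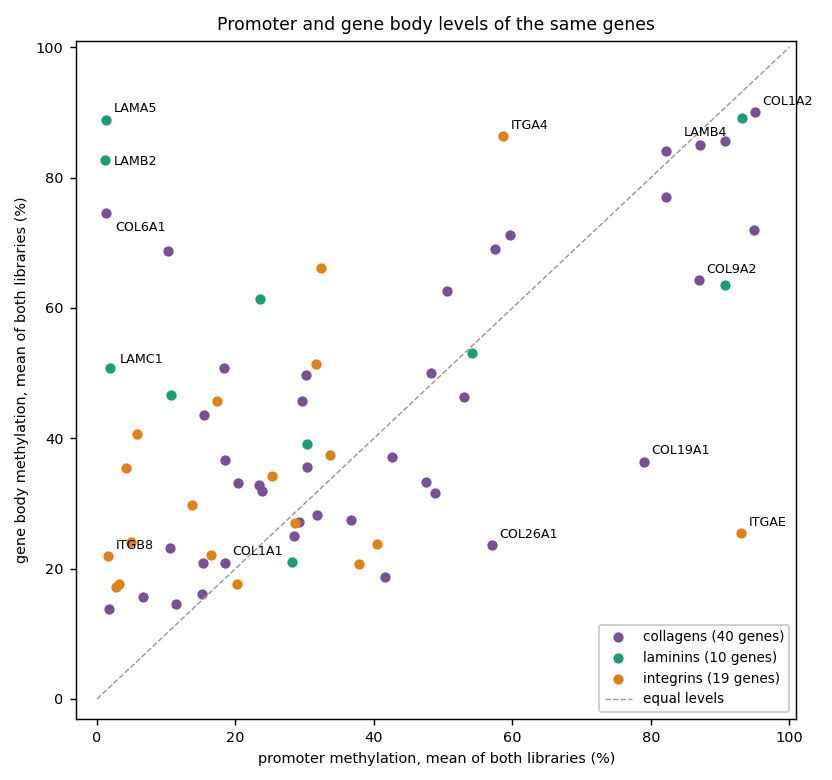
Gene body level (y axis, percent) against promoter level (x axis, percent), each the mean of the Mdivi-1 and DMSO control libraries, for 69 of the 70 genes, coloured by family. LAMA5, LAMB2 and COL6A1 stand at the upper left, COL1A2 and LAMB4 at the upper right, and ITGAE stands at the lower right.

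The comparison of the Mdivi-1 with the DMSO library asked whether methylation of these genes differed between them, and the difference was small. The median promoter difference was 0.328 points (0.198 points over all promoters). With Mdivi-1 43 promoters were higher and 27 lower (61.4% higher, against 58.3% of all promoters). The median gene body difference was 0.525 points (0.394 points over all gene bodies). Of the gene bodies 52 were higher and 27 lower (65.8% higher, against 65.8% of all gene bodies). After the mean difference of all CpGs of the same level was removed, 36 of 70 promoters (51.4%, against 61.4% before) and 37 of 79 gene bodies (46.8%, against 65.8%) were higher in the Mdivi-1 library. The medians were then 0.0932 points for promoters and -0.0654 points for gene bodies. Differences of under 5 points were found in 65 of 70 promoters and 78 of 79 gene bodies.

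A rule of size called a region different at a mean difference of at least 10 points over at least 5 CpGs, with at least 80% of the CpGs in that direction. By this rule 1 of 70 promoters was called, COL6A2, which was higher in the Mdivi-1 library. Of all 22658 promoters 0.243% were called, 0.128% as higher and 0.115% as lower. The 5 CpGs of COL6A2 lay at 47517139 to 47517218 of chromosome 21 (hg19), upstream of the gene in the shore of a CpG island. In order along the chromosome they were at 76.9%, 53.8%, 75%, 46.2% and 72.7% in the Mdivi-1 library, against 75%, 54.5%, 58.3%, 30.0% and 54.5% in the control. The first 2 CpGs were nearly equal and the other 3 were higher in the Mdivi-1 library. Coverage was 12.4 reads with Mdivi-1 and 11.2 reads with DMSO, the difference was 10.4 points, and its counting error was 8.77 points, or 20.2 points if reads were shared. The difference is thus within 1.96 counting errors, and with at least 20 reads no CpG of this promoter remained. None of the 79 gene bodies was called, against 0.149% of all gene bodies.

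Beyond 1.96 counting errors, a criterion met by 11.6% of all promoters, stood 9 of 70 promoters (12.9%), 6 higher (7.97% of all promoters were) and 3 lower (3.62% of all). The higher ones included COL8A2, COL28A1, ITGA2, ITGB5 and ITGA3, and the lower ones COL4A4, ITGA9 and ITGAX. With reads pooled over CpGs the ITGA2 promoter difference turned from 3.81 to -0.366 points, and those of ITGA3 and COL4A4 were 4.998 and -4.48 points in place of 1.70 and -6.84. COL8A2 differed by 6.28 points with a counting error of 2.26 points, and COL28A1 by 4.91 points with an error of 2.11 points. ITGA9, a receptor subunit for tenascin, differed by -4.40 points with an error of 1.56 points, although its CpGs split into 5 lower and 4 higher. If reads were shared by all CpGs of a promoter, each of the 9 differences lay within 1.96 such errors: those of COL8A2 and ITGA9 were 13.4 and 4.99 points. These errors tend to be too large for promoters that mix low and high CpGs. ITGA10, a collagen-binding subunit left out of the count for its 4 CpGs and named after its values were seen, was higher at all 4, at 85.0% in the Mdivi-1 library and 74.8% in the control.

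**Figure D4:**
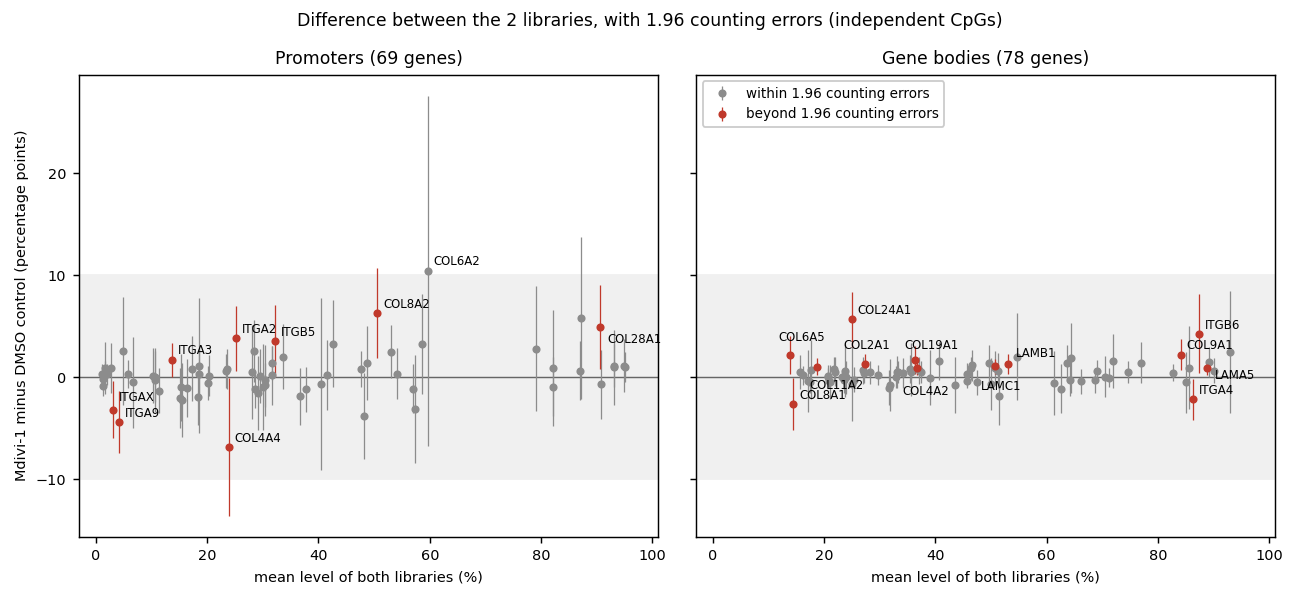
Difference between the libraries (y axis, Mdivi-1 minus DMSO control, percentage points) against the mean level of both (x axis, percent) for 69 of the 70 promoters (left) and 78 of the 79 gene bodies (right), with bars of 1.96 counting errors for independent CpGs. Grey shading marks differences under 10 points, which only the COL6A2 promoter exceeded, and the named genes in red lie beyond 1.96 counting errors.

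Among gene bodies 13 of 79 lay beyond 1.96 counting errors (16.5%, against 16.9% of all gene bodies), 11 higher (13.9% of all gene bodies were) and 2 lower (2.98% of all). The 11 were COL24A1, ITGB6, COL9A1, COL6A5, COL19A1, COL2A1, COL11A2, COL4A2, LAMB1, LAMC1 and LAMA5. After the mean difference of all CpGs of the same level was removed, COL9A1 stood at 1.34 points and COL4A2 at 0.385 points. LAMB1, LAMC1 and LAMA5 then stood at 0.639, 0.612 and 0.123 points, and these differences all lay within 1.96 counting errors. The rest of the 11 are not given after this step. COL24A1, a minor fibrillar collagen, had the largest difference, 27.9% in the Mdivi-1 library and 22.2% in the control over 60 CpGs, with 44 CpGs higher and 12 lower. The difference was 5.66 points with a counting error of 1.35 points, or 8.76 points if reads were shared. It was 3.16 points with at least 15 reads and 3.01 points with at least 20 reads in both libraries. A stretch chosen after its values were seen, the 31 intronic island CpGs at 86621395 to 86622114 of chromosome 1, held most of it, at 36.3% in the Mdivi-1 library and 27.1% in the control, with 27 higher and 4 lower. The other 29 gene body CpGs of COL24A1 stood at 18.8% with Mdivi-1 and 16.9% with DMSO. Its promoter, which continues the same island, stood at 29.7% with Mdivi-1 and 27.1% with DMSO, with 27 of 52 CpGs higher, and its difference of 2.58 points turned to -1.46 points with at least 20 reads. The lower gene bodies were COL8A1, at 13.2% in the Mdivi-1 library and 15.8% in the control, and ITGA4, at 85.2% with Mdivi-1 and 87.4% with DMSO. Among gene bodies with at least 20 CpGs, others of the 5 largest differences in each direction were COL9A1 (2.22 points), COL6A5 (2.15 points), ITGAL (1.87 points) and COL19A1 (1.67 points), and ITGB7 (-1.88 points) and COL8A2 (-1.13 points). The gene body difference of COL8A2 lay within 1 counting error (1.22 points), with 23 CpGs higher and 24 lower. That of ITGB7 was -0.288 points and that of COL6A5 1.12 points with at least 20 reads. With pooled reads COL19A1 stood at 5.37 points, ITGAL at 7.17 points and ITGA4 at -1.03 points.

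Fixed windows of 1 kb located smaller stretches. By the same rule of size 10 of 809 windows of these genes were called (1.24%, against 0.874% of 120155 windows), 7 higher (0.538% of all windows were) and 3 lower (0.336% of all). Intermediate windows met the rule more often in both sets: between 20% and 80% it was 9 of 420 windows (2.14%), against 2.0% of all such windows. The largest difference was in exons and introns of ITGB4 (chromosome 17, 73723666 to 73723793), at 64.6% in the Mdivi-1 library and 46.8% in the control over 7 CpGs, 6 of them higher. COL6A3 had 12 CpGs at the start of its gene and its nearest promoter CpG (chromosome 2, 238322233 to 238322973), at 90.4% in the Mdivi-1 library and 77.3% in the control, and all 12 were higher in the Mdivi-1 library. Its counting error was 3.05 points, or 10.7 points if reads were shared, at 31.4 reads in the Mdivi-1 library and 19.1 reads in the control. With at least 20 reads in both libraries 1 of the 12 CpGs remained.

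COL4A2 supplied 4 of the 10 windows, all intronic, 2 in each direction. Those higher in the Mdivi-1 library were at 47.7% against 34.2% in the control over 6 CpGs (chromosome 13, 111161019 to 111161282) and at 33.3% against 22.8% in the control over 10 CpGs (111107063 to 111107906). Those lower in the Mdivi-1 library were at 45.0% against 56.2% in the control over 5 CpGs (111060920 to 111060975) and at 43.6% against 54.8% in the control over 5 CpGs (110965701 to 110965799). No CpG of the last window remained with at least 15 reads. With at least 20 reads 4 of 6 CpGs of the first remained, too few for the rule, and 8 of 10 of the second, which then no longer met it. With pooled reads the windows at 111107063 and 111060920 differed by 9.71 and -8.91 points, under the limit. Its whole gene body of 646 CpGs differed by 0.911 points. An intronic window of COL5A1 (chromosome 9, 137707009 to 137707095) stood at 40.8% in the Mdivi-1 library and 27.6% in the control over 5 CpGs. An intronic window of COL18A1 (chromosome 21, 46914521 to 46914632) stood at 70.7% with Mdivi-1 and 59.1% with DMSO over 10 CpGs. With at least 15 reads 3 of these CpGs remained, with a difference of 7.68 points, and with at least 20 reads none did. The window of COL5A3 (chromosome 19, 10077008 to 10077936) stood at 39.2% with Mdivi-1 and 53.3% with DMSO over 5 CpGs, with 4 lower and none higher, but the difference was -3.13 points over the 2 CpGs with at least 15 reads and turned to 5.04 points with reads pooled over its CpGs. The remaining window was the COL6A2 promoter, which differed by 9.16 points with pooled reads.

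**Figure D5:**
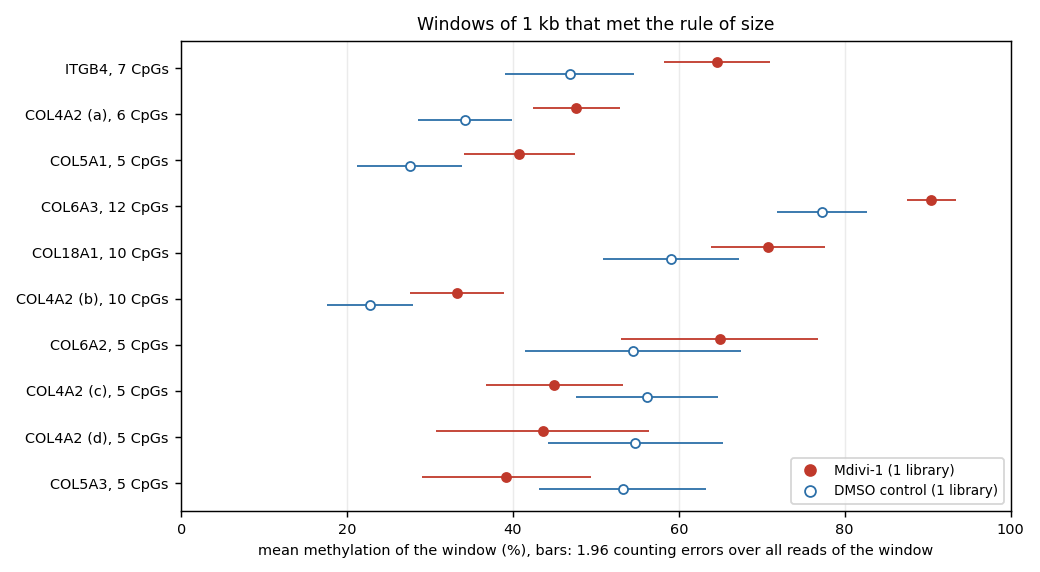
Mean methylation (x axis, percent) of the 10 windows of 1 kb that met the rule of size, with the Mdivi-1 library as filled red points above the DMSO control as open blue points, and bars of 1.96 counting errors over all reads of the window. The 4 COL4A2 windows are lettered a to d from the highest to the lowest difference, 2 of them higher and 2 lower in the Mdivi-1 library.

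At single CpGs a two-sided Fisher exact test compared the reads of both libraries, with Benjamini-Hochberg adjustment over all 2458231 autosomal CpGs. It compares these 2 libraries, not the treatments. By adjusted p under 0.05 and a difference of at least 20 points, 1 of the 14152 CpGs was called, against 15 of all autosomal CpGs (0.00061%). It lies in an intron of LAMB1, at position 107607903 of chromosome 7, outside any CpG island, shore or shelf. All 44 reads were methylated in the Mdivi-1 library (100%), against 49 of 78 in the control (62.8%), a difference of 37.2 points with a Fisher exact p of 2.76e-07 and an adjusted p of 0.0377. Neighbouring CpGs were high in both libraries: 86 bases on, 102 of 107 reads were methylated in the Mdivi-1 library and 71 of 79 in the control, and 105 bases on, 104 of 105 with Mdivi-1 and 78 of 81 with DMSO. Coverage at the called CpG was thus 44 reads against 107 and 105 at its neighbours in the Mdivi-1 library, and 78 against 79 and 81 in the control, and the part of this in the result was not tested. Before adjustment 374 of the 14152 CpGs had p under 0.05 (2.64%, against 2% of all CpGs), 221 higher and 153 lower in the Mdivi-1 library.

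Differences by annotation were small as well. In gene bodies the 3′ untranslated CpGs of these genes stood at 54.3% in the Mdivi-1 library and 52.4% in the control (336 CpGs, 1.94 points with a counting error of 0.472 points), against a difference of 0.706 points over all such CpGs. That difference was 1.43 points in collagens (247 CpGs), 4.24 points in laminins (20 CpGs) and 3.07 points in integrins (69 CpGs). Intronic CpGs stood at 39.3% with Mdivi-1 and 38.9% with DMSO (8097 CpGs) and exonic CpGs at 58.3% with Mdivi-1 and 57.8% with DMSO (3086 CpGs). In promoters, island CpGs differed by 0.00231 points over 685 CpGs (0.118 points over all such CpGs) and shore CpGs by 0.718 points over 816 (0.361 points over all). Shelf CpGs differed by -0.557 points over 107 (0.452 points over all), and CpGs outside islands, shores and shelves by 1.32 points over 354 (0.534 points over all), with a counting error of 0.369 points.

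Genes that act with these families did not meet the rule of size at any promoter or gene body. Of 21 matrix and basement membrane genes with a measured promoter, such as FN1 and NID1, the median level was 13.6% and the median difference 0.334 points, with 15 higher and 6 lower in the Mdivi-1 library. FN1, which encodes fibronectin, stood at 2.54% in the Mdivi-1 library and 1.53% in the control, and THBS2, a matricellular thrombospondin, at 2.54% with Mdivi-1 and 7.54% with DMSO. Of 24 genes that modify, fold or crosslink collagen, the median promoter level was 19.2% and the median difference -0.174 points, with 11 higher and 13 lower. Of 25 genes of the integrin adhesion complex, the median promoter level was 24.3% and the median difference 0.221 points, with 15 higher and 10 lower. Their gene body medians differed by 0.803, 0.876 and 0.728 points, with 18 of 22, 18 of 24 and 19 of 26 genes higher in the Mdivi-1 library, against a median of 0.394 points and 65.8% higher over all gene bodies. Over all promoters the median was 0.198 points and 58.3% were higher, and the rule of size called 0.243% of promoters and 0.149% of gene bodies. NID1, the nidogen that links laminin to type IV collagen, had a gene body at 78.1% in the Mdivi-1 library and 73.9% in the control over 135 CpGs.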

How the data were processed

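Genomic DNA of 1 Mdivi-1 and 1 DMSO culture of SH-SY5Y was profiled by methyl capture sequencing with the SureSelectXT Methyl-Seq kit, per the labels' protocols. The submitters' processing notes name BSMAP, with no version, and hg19. The authors deposited for each of 2773807 positions the methylated fraction and the coverage per library, which are taken as estimated counts because some are not whole, and the annotation used here. The authors' deposited difference of the fractions, a score, was not used.

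As deposited, control fractions matched whole reads at 33.3% of positions of whole coverage, within a tolerance of 1e-06. They matched once coverage had been scaled by 1.23 (37 over 30, the median coverages) and rounded, a step that no source used here gives. The methylated count behind each deposited fraction was recovered on that basis, and 10798 positions (0.389%) without a recovered count were left out. Promoter CpGs were combined per gene and chromosome, and several start sites can make this region long. Gene body CpGs carry the gene in a region that is not intergenic and are not in its own promoter. Levels are means over CpGs that both libraries covered with at least 10 reads.

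Counting errors are binomial, so they and all p-values cover read counting only, and PCR copies are not independent molecules. Per-CpG reads limit precision: mean coverage was 47.2 reads (Mdivi-1) and 38.2 reads (control). The genes and lists were chosen with earlier results of these data known. Named were the highest and lowest promoter of each role, the 5 largest differences each way of promoters (at least 5 CpGs) and gene bodies (at least 20 CpGs), all called regions and CpGs, the head-to-head type IV pairs, 9 genes of main laminins and receptors, and the 3 widest gaps between promoter and gene body each way. Other named genes complete a protein with a gene named by that rule, meet a stated count or were chosen after their values were seen. One gene is in all counts and medians but is not reported by name or drawn here. Of RefSeq promoters, 55 gene symbols matched. On simulated data the recovery returned 100% of counts. The simulated fractions were built by the scaling and rounding assumed for the control, so this cannot show that the authors used that step. In a further simulation of 22658 promoters, a sample with intermediate levels was raised by 20 points, with CpGs drawn independently. The rule of size found 95.5% of that sample, and smaller shifts and low or high promoters were not tried. Alternatives, of which 1 (intergenic promoter rows left out) was added after seeing the data, were other coverage minimums, pooled reads, deposited fractions, centring by level, other regions, sizes, CpG numbers, windows and limits. Tools were SciPy 1.17.1, pandas 2.3.3, NumPy 2.4.6 and Matplotlib 3.10.9 under Python 3.11.15.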

Additional observations from a re-analysis of the deposited data

How the results depend on the processing

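With 1 library per group, nothing here has a replicate check, and no paired or left-out-replicate fit exists. No paired analysis was possible because each group has 1 library.

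The median promoter level of 29.4% was 31.5% with at least 20 reads, 30.3% with at least 15 reads, 30.8% with pooled reads and 27.9% without intergenic promoter rows. The median gene body level of 39.1% was 39.6%, 38.8% and 38.5% under the first 3 of these, and 37.8% with promoter rows kept. The median gene body difference of 0.525 points was -0.0654 points after centring by level. The promoter count by the rule of size, 1, was 2 at 5 points, 0 at 15 points, 0 with at least 10 CpGs, 2 with at least 3 CpGs (COL6A2 and ITGA10), 0 with at least 20 reads and 0 with pooled reads. The count of gene bodies was 0 under every alternative run. The window count of 10 was 41 at 5 points, 1 at 15 points, 3 with at least 10 CpGs and 26 with at least 3 CpGs. It was 5 with at least 20 reads and 6 in windows of 2 kb. At 20 reads only ITGB4, COL5A1 and the COL4A2 windows at 111107063 and 111060920 kept at least 5 CpGs among the 10. The window at 111107063 then no longer met the rule, so the 5 include windows that are not among the 10. The COL5A3 window turned from -14.0 to 5.04 points with pooled reads, and the cause was not tested. Promoters in the low class numbered 25 rather than 12 with limits of 20% and 70%. At an adjusted p under 0.01 no single CpG was called (0), as the LAMB1 CpG had 0.0377. Its adjusted p ranged from 0.0284 to 0.0377 over the alternatives run. With pooled reads the sign turned for 12 of 47 named promoters and 16 of 47 named gene bodies. With at least 20 reads it turned for 6 of 44 and 14 of 47.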
